A study of Mus musculus with 4 samples.

Results

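Metallothioneins and the genes that carry zinc and iron across membranes or store iron were followed in mouse embryonic fibroblasts (MEFs), connective tissue cells grown out of embryos, with and without tumour necrosis factor (TNF) and with and without FAN. The protein FAN, the product of Nsmaf, is an adaptor of the TNF receptor. The members are 10 genes taken as a set by their function, namely Mt1, Mt2, Slc30a1, Slc39a14, Slc39a8, Slc11a2, Slc40a1, Tfrc, Fth1 and Steap4, out of 18193 genes named by the arrays. They were chosen by function and not by a threshold on their values, but with earlier results of these data known. A probe set is a group of short oligonucleotides made to measure a transcript, and some can match more than 1. A total of 27 probe sets name a member, and 3 of these are control probe sets for Tfrc.

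The cells came from C57BL/6 embryos, either FAN +/+ (wild type) or FAN -/- (knockout), and all were kept in DMEM with 0% FCS, that is without serum. Untreated cells had 24 h of this medium, and treated cells had 8 h of it followed by 16 h with TNF at 50 ng/ml. Total RNA of the 4 conditions was measured on Affymetrix mouse genome arrays, 1 for each condition, so differences between 2 arrays are given without a replicate check or a p-value. Which part of Nsmaf was deleted, how many embryos were used and whether the 2 arrays of a genotype share a cell preparation are not given in the sources used here. Groups follow the sample titles. The genotype entry disagrees with them on 2 arrays, calling the TNF-treated FAN +/+ sample a knockout and the untreated FAN -/- sample a wild type.

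Values are the log2 probe set values as deposited, and a signal is the same value on the linear scale. A floor was set at log2 6.27 (signal 77.0), the median of all values, and lower values were raised to it before a fold was taken, so a fold against the floor is a bound ("at least"). The share of probe sets above the floor was 49.2% to 50.5% on the 4 arrays. Nsmaf had signals of 496 (untreated) and 376 (TNF) on the wild-type arrays and 240 and 179 on the knockout arrays, lower on both knockout arrays as the titles say. If the genotype entries were right instead, genotype and TNF could not be told apart. All 10 fibroblast markers were above the floor on all 4 arrays, their summed signal running from 84352 (knockout with TNF) to 112707 (wild type with TNF). Within this list Lum, Dcn and Pdgfra were lower on the knockout arrays in both treatments, and so were Col1a1, Col1a2 and Col3a1, by less. Thy1 and Fn1 went the other way in both treatments, and Pdgfrb and Vim had no common direction. Lum, a collagen-binding proteoglycan, had log2 values of 12.75 (untreated) and 13.42 (TNF) in wild-type cells and of 8.78 and 7.45 in knockout cells. Dcn had 12.65 and 13.32 against 11.51 and 11.19, and Pdgfra 10.89 and 11.43 against 9.46 and 9.62. Thy1, by contrast, had 9.65 and 8.95 against 10.27 and 9.33, and Pdgfrb 11.68 and 11.86 against 12.02 and 11.84. Whether a different mix of fibroblasts has a part in the genotype differences of the members was not tested. Of 10 macrophage and leukocyte markers 6 were at the floor on every array, among them Ptprc, Adgre1 and Cd68. The other 4 were above it on all 4 arrays. Lyz2 had log2 values of 7.89 (untreated) and 8.44 (TNF) in wild-type cells and of 9.6 and 8.28 in knockout cells. Csf1r had 6.6 and 7.68 against 7.9 and 7.71, and Cd14 7.4 and 8.57 against 7.73 and 8.09. Laptm5 had 7.15 and 7.27 against 7.33 and 7.47. The defining markers Alb and Afp of hepatocytes, Pecam1 and Cdh5 of endothelium and Cdh1 of epithelium were at the floor throughout, as were Hba-a1 and Alas2 of the erythroid lineage. Other genes of these lists were above the floor on all 4 arrays, namely Kdr and Tek (endothelium), Epcam and Krt8 (epithelium) and Ttr (hepatocytes). Epcam had log2 values of 9.05 to 9.25. Klf1 (erythroid) was above the floor on 3 arrays, at 6.62 to 6.66, and Apoa1 (hepatocytes) on 1, at 6.29. The summed signals of the endothelial, epithelial and hepatocyte lists differed by at most 1.14-fold between arrays, that of the macrophage and leukocyte list by 1.67-fold.

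Zinc and iron are needed by every cell and harmful in excess, and each is handled by importers, exporters and a store. Metallothioneins are small cysteine-rich proteins that bind zinc and copper; their genes are switched on by the zinc-sensing factor MTF1 through short metal response elements (MREs), and also by inflammatory signals. ZIP proteins (Slc39 family) bring zinc into the cytosol and ZnT proteins (Slc30 family) take it out. Iron bound to transferrin enters through the transferrin receptor Tfrc, is reduced by STEAP enzymes, leaves the endosome through Slc11a2 (DMT1), is stored in ferritin, and leaves the cell through ferroportin (Slc40a1). Inflammation is known to draw zinc and iron out of the blood and into cells.

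RefSeq promoter sequences (build GRCm38.p6) were found for 7 of the 10 members; Slc39a14, Slc11a2 and Slc40a1 had no entry. The 250 bases before the annotated start are shown for 4 of them. Mt1 and Mt2 are the metallothionein pair of the results, Slc30a1 is a zinc exporter gene that is known, like them, to be controlled by MTF1, and Steap4 had the largest genotype differences of the members. The windows lie at chr8:94178839-94179088 (Mt1), chr8:94172368-94172617 (Mt2), chr1:191906531-191906780 (Slc30a1) and chr5:7960222-7960471 (Steap4), all on the plus strand. Capitals mark, on either strand, the MRE core (TGCACNC or TGCGCNC), the STAT motif TTCNNNGAA and the NF-kB consensus.

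Mt1: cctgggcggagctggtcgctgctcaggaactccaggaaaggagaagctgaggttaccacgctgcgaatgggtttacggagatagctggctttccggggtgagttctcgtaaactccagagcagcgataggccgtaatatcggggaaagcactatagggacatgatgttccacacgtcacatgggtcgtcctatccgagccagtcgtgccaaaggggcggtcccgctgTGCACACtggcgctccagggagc
Mt2: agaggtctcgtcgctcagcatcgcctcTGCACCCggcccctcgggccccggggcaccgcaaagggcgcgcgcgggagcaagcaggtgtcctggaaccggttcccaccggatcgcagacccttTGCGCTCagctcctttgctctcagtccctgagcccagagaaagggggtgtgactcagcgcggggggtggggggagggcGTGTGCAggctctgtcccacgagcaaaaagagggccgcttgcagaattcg
Slc30a1: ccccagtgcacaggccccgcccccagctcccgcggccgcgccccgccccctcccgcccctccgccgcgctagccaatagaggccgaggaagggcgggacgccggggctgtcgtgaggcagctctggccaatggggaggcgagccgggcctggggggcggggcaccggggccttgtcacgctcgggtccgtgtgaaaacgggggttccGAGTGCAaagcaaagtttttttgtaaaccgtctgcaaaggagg
Steap4: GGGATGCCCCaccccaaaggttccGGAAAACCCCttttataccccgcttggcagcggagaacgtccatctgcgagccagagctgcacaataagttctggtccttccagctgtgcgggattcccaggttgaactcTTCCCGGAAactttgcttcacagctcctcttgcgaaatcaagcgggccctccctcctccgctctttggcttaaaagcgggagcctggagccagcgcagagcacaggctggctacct

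The Mt2 window holds 3 MRE cores, and those of Mt1 and Slc30a1 hold 1 each. Bases outside the 250 were not searched, so these counts are not the number of cores in a whole promoter. Of the other members, 1 of the Tfrc windows holds 2 (which share bases) and 1 of the Slc39a8 windows holds 1. Among 32851 RefSeq promoter windows of this length, 21.4% hold at least 1 MRE core and 1.26% at least 3. The Steap4 window holds 1 STAT motif, present in 7.02% of all windows, and 2 NF-kB matches, where 1.03% hold at least 2. No motif overlaps another in these 4 windows. These matches are letters in a sequence and say nothing of binding in these cells. Mt2 and Mt1 lie next to each other in the gene order of chromosome 8, in a cluster with Mt3 and Mt4.

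Both metallothionein genes rose with TNF, in both genotypes. The Mt2 probe set had signals of 3510 (untreated) and 16959 (TNF) in wild-type cells, and of 1541 and 11654 in knockout cells. Both TNF arrays were thus far above both untreated arrays, and the knockout array was the lower one within each treatment. TNF gave a 4.83-fold higher signal in wild-type cells and a 7.56-fold higher signal in knockout cells. In a limma model with additive effects of genotype and TNF, in which each treatment has 2 arrays and the gap between the responses of the 2 genotypes is the error, the TNF effect on Mt2 was 2.60 ± 0.17 log2 (SE, adjusted p = 0.012, limma with Benjamini-Hochberg over 11817 genes). The TNF-treated wild-type value (log2 14.05) was near the highest value on that array (14.36), and whether this held the value down was not tested.

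Mt1, on its brighter probe set, had signals of 2810 and 6607 in wild-type cells and of 1880 and 4606 in knockout cells. It was 2.35-fold higher with TNF in wild-type cells and 2.45-fold higher in knockout cells, so the responses of the 2 genotypes were nearly equal on this probe set. The limma TNF effect was 1.26 ± 0.08 log2 (SE, adjusted p = 0.011). Its second probe set was far dimmer, going from 125 to 161 and from 109 to 158, in the same direction but with a smaller effect that did not pass (0.45 log2, adjusted p = 0.16). The name of the brighter probe set ends in s_at, which marks oligonucleotides that can match more than 1 transcript, so part of its signal could come from related transcripts. Of the other metallothioneins, Mt3 was at the floor on 3 arrays and reached a signal of 80.8 on the knockout TNF array.

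**Figure D1:**
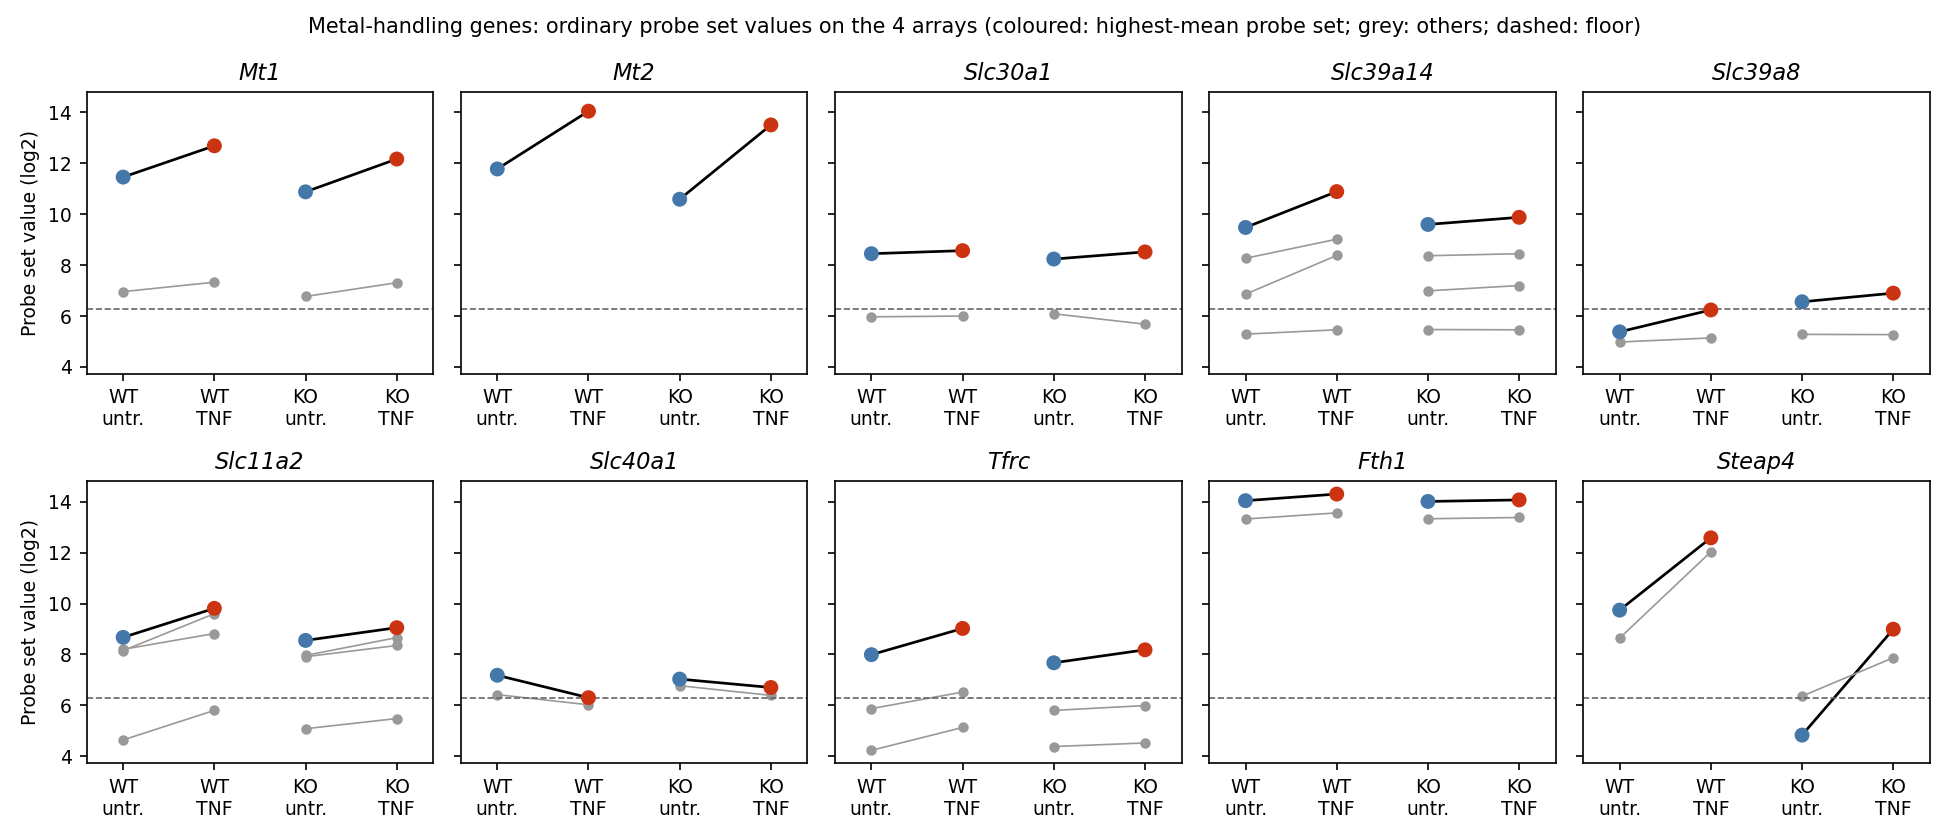
Log2 values (vertical axis) of the 24 ordinary probe sets of the 10 genes on the 4 arrays, wild type (WT) and knockout (KO), untreated (blue) and TNF (red), 1 array each, with no error bars. Coloured points are the probe set of highest mean of each gene and grey points its other probe sets; the dashed line is the floor at 6.27. Mt2 reaches 14.05 and 13.51 with TNF, and Steap4 drops to 4.83 on the untreated knockout array.

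Without TNF, knockout cells had less of both metallothionein transcripts on these arrays. Mt2 was 2.28-fold lower and Mt1 1.50-fold lower than in the wild type, and under TNF the gaps were 1.46-fold and 1.43-fold. The genotype effect in limma passed for Mt1 (-0.55 ± 0.08 log2, SE, adjusted p = 0.033). It did not pass on the second Mt1 probe set (-0.11 log2, adjusted p = 0.54), on the mean of both (-0.33 log2, adjusted p = 0.14) or without limma's intensity trend (adjusted p = 0.058). For Mt2 it was -0.86 ± 0.17 log2 and missed the threshold (adjusted p = 0.061), though it passed in 5 of 9 additive fits (adjusted p from 0.0046 to 0.081). The zinc-sensing factor gene Mtf1 itself had log2 values of 8.01 (untreated) and 7.95 (TNF) in wild-type cells. Its knockout values were 7.93 and 8.02. Whether the factor has a part in the metallothionein differences was not tested.

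Among the zinc transporters the importer Slc39a14 (ZIP14), a plasma membrane protein that also carries iron, stood out on the TNF-treated wild-type array. The brightest probe set of this gene read 716 (untreated) and 1893 (TNF) in the wild type. The knockout signals were 776 and 943. The untreated arrays were close to each other, and only the wild-type TNF array was high. The TNF difference was 2.64-fold in wild-type cells and 1.22-fold in knockout cells. Another probe set (308, 520, 332 and 350, in the same order of arrays) and a further one (116, 332, 128 and 147) had the same order of values, with TNF differences of 1.69-fold and 2.86-fold in wild-type cells and 1.05-fold and 1.15-fold in knockout cells. The fourth lay below the floor on all arrays. With TNF the knockout value was 2.01-fold, 1.49-fold and 2.26-fold lower than the wild-type value on the 3 measured probe sets. Since the response differed between genotypes, the shared TNF effect in limma, 0.84 ± 0.28 log2, did not pass (adjusted p = 0.23), and the difference of the responses, -1.12 log2, could not be tested because the arrays leave no degree of freedom for it.

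The other members of the zinc group differed little or were faint. Slc30a1 (ZnT1), the zinc exporter of the plasma membrane, had signals of 351 and 381 in wild-type cells and of 303 and 367 in knockout cells, a 1.09-fold and a 1.21-fold TNF difference. Its limma TNF effect was 0.20 ± 0.12 log2 (adjusted p = 0.44), and its second probe set lay below the floor. This was unlike Mt1 and Mt2 on the same arrays, although the difference between genes was not tested. Slc39a8 (ZIP8), an importer of zinc and manganese, had signals of 41.6 and 75.3 in wild-type cells, both under the floor, and of 94.1 and 120 in knockout cells. Both knockout arrays were above both wild-type arrays, by at least 1.22-fold untreated and at least 1.56-fold with TNF, and the genotype effect of 0.46 ± 0.12 log2 did not pass (adjusted p = 0.11). With no floor, on log2(signal + 16), this effect was 0.75 log2 and passed (adjusted p = 0.031). Its second probe set was below the floor on all arrays.

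The iron uptake genes Slc11a2 and Tfrc were also highest on the wild-type TNF array. Slc11a2, the iron importer of endosomes, had signals of 409 and 897 in wild-type cells and of 374 and 528 in knockout cells on its brightest probe set, 2.20-fold and 1.41-fold higher with TNF. The next brightest probe sets gave 2.73-fold and 1.53-fold in wild-type cells and 1.62-fold and 1.35-fold in knockout cells, so all 3 had the higher TNF value in both genotypes and the larger difference in wild-type cells. The fourth lay below the floor. Tfrc, the transferrin receptor, had signals of 253 and 521 in wild-type cells and of 204 and 289 in knockout cells, 2.05-fold and 1.42-fold higher with TNF. Its other ordinary probe sets lay below the floor, except for 1 on the wild-type TNF array (signal 92.0), and the 3 control probe sets lay between 9.99 and 39.3, below the floor. On both genes the untreated knockout array was the lowest of the 4. Neither passed limma for TNF (Slc11a2 0.82 ± 0.18 log2, adjusted p = 0.12; Tfrc 0.77 ± 0.17 log2, adjusted p = 0.11).

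**Figure D2:**
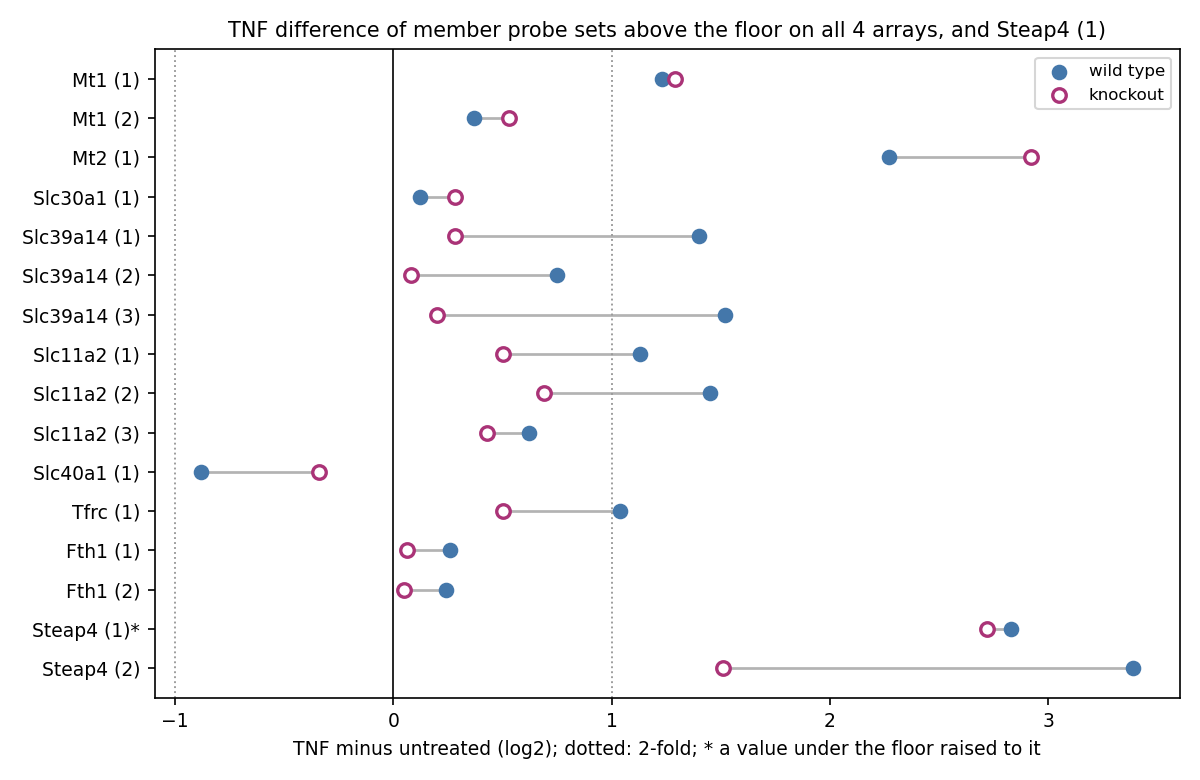
TNF minus untreated (log2, horizontal axis) in wild-type (filled) and knockout cells (open) for the 15 member probe sets above the floor on all 4 arrays and for the brighter Steap4 probe set (asterisk), whose untreated knockout value was raised to the floor. Numbers in brackets order the probe sets of a gene by mean, the dotted lines mark 2-fold, and each point is 1 array against 1. Open points lie left of filled ones for all 3 Slc39a14 and all 3 Slc11a2 probe sets and right of them for Mt2.

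Storage and export differed less. Fth1, the heavy chain of ferritin, had signals of 16825 and 20148 in wild-type cells and of 16455 and 17209 in knockout cells, a 1.20-fold and a 1.05-fold TNF difference, and its second probe set gave 1.18-fold and 1.03-fold. The values of the first (log2 14.01 to 14.30) lay close to the array maxima of 14.34 to 14.40, and whether this held them down was not tested. The name of the first Fth1 probe set also ends in s_at, so part of its signal could come from related transcripts. The ferroportin gene Slc40a1 was the only member lower with TNF in both genotypes on its brightest probe set, with signals of 145 and 78.8 in wild-type cells and of 131 and 104 in knockout cells. The wild-type value with TNF was just above the floor, 1.85-fold below the untreated one, and the knockout difference was 1.26-fold. Its second probe set went from 85.4 to 64.9, below the floor, in wild-type cells and from 109 to 83.7 in knockout cells. The limma TNF effect, -0.61 ± 0.16 log2, did not pass (adjusted p = 0.15). Ferroportin is abundant in macrophages; the summed signal of the 10 macrophage and leukocyte markers, floor values included, was 1108 and 1550 in wild-type cells and 1851 and 1430 in knockout cells, and its part in the Slc40a1 values was not tested. The brightest Slc40a1 probe set was highest on the array where this sum was lowest (wild type, untreated), but the second was highest where the sum was highest (knockout, untreated). In such bulk RNA, fewer cells of a type and less RNA per cell cannot be told apart.

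Steap4, a metalloreductase that reduces iron and copper and is known to be induced in inflammation, had the largest TNF difference of the 10 genes in wild-type cells and the largest genotype differences. On the brighter probe set its signals were 856 and 6110 in wild-type cells, and 28.5 and 509 in knockout cells. The TNF-treated knockout array thus stayed below the untreated wild-type array. With TNF the signal was 7.13-fold higher in wild-type cells and at least 6.61-fold higher in knockout cells, and the knockout value was at least 11.1-fold lower untreated and 12.0-fold lower with TNF. In limma Steap4 rose with TNF (2.78 ± 0.11 log2, SE, adjusted p = 0.0076) and was lower in knockout cells (-3.53 ± 0.11 log2, SE, adjusted p = 0.0028). These standard errors are small because the floor brought the knockout response (4.16 log2 as deposited, 2.72 after the floor) close to the wild-type one (2.83).

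The second Steap4 probe set had the same directions but another size of response. It gave signals of 399 and 4175 in wild-type cells and of 82.2 and 234 in knockout cells, all above the floor. TNF was accompanied by a 10.5-fold difference in wild-type cells and a 2.85-fold difference in knockout cells, and the knockout value was 4.86-fold and 17.8-fold lower in untreated and TNF-treated cells. On this probe set neither limma effect passed (TNF 2.45 log2, adjusted p = 0.14; genotype -3.22 log2, adjusted p = 0.059). The probe sets therefore disagree on whether the response was larger or smaller without FAN. As deposited, the difference of the log2 responses (knockout minus wild type) was 1.32 on the brighter and -1.88 on the second probe set.

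**Figure D3:**
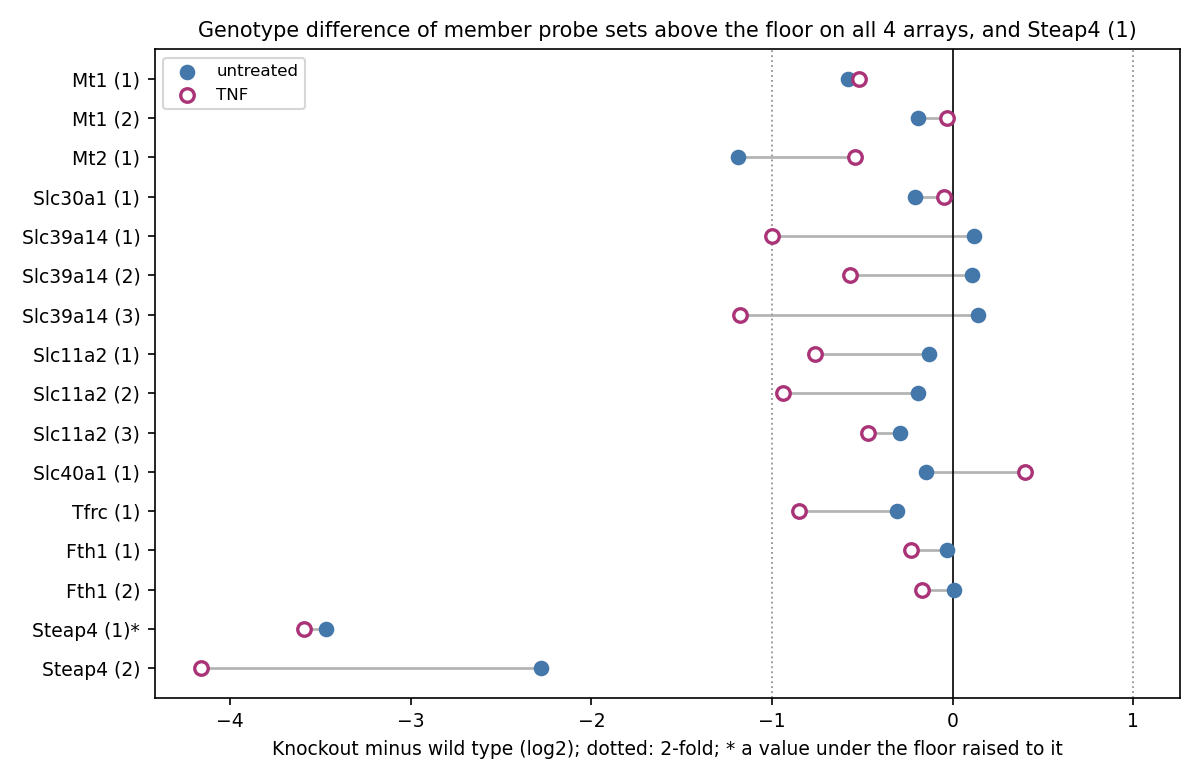
Knockout minus wild type (log2, horizontal axis) in untreated (filled) and TNF-treated cells (open) for the same probe sets as in the plot of TNF differences, 1 array against 1. Steap4 lies far to the left in both treatments, at -2.28 and -4.16 on its second probe set, and the 3 Slc39a14 probe sets lie right of 0 untreated and left of 0 with TNF.

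In all, 6 of the 10 genes (Mt1, Mt2, Slc39a14, Slc11a2, Tfrc and Steap4) were at least 2-fold higher with TNF in wild-type cells, where 2.20% of 12224 genes above the floor were, and none was 2-fold lower (1.92% of all genes). With the mean of all probe sets of a gene 3 members were (Mt2, Slc11a2 and Steap4), since this takes in dim probe sets. Tfrc was only just inside, at 2.05-fold, and the count was 5 with no floor and 5 after centring. In knockout cells 3 were at least 2-fold higher (Mt1, Mt2 and Steap4), against 1.35% of all genes, and none was lower (1.07%). The median log2 difference of the 10 was 1.09 in wild-type cells and 0.42 in the knockout, where the medians of all genes were -0.03 and 0.01. Since the members were chosen with earlier results of these data known, these shares and medians describe them and do not test them as a set. Past the limma test for TNF 3 genes were higher (Mt1, Mt2 and Steap4) and 0 lower, with 1.57% and 1.14% of all genes past it in these directions; 7 of the 10 genes did not pass. The 2 genotypes' responses rest on separate arrays. After the floor, on the brightest probe sets, the responses differed by at least 2-fold for 1 member, Slc39a14 (lower in knockout cells). Of all genes 0.818% did so in that direction and 0.794% in the other. For Steap4 the difference of the log2 responses as deposited was 1.32 on the brighter probe set and -1.88 on the second, both past 2-fold.

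All 15 probe sets above the floor on all 4 arrays could be compared without a bound. Of these, 14 were higher with TNF in each genotype, the exception being Slc40a1, while 41.9% (wild type) and 52.2% (knockout) of the 10985 genes above the floor on all arrays were higher. In 10 of the 15 the signed TNF difference was smaller in knockout cells, but several of these probe sets belong to the same gene and are not independent. Counted with 1 probe set per gene after the floor, the difference of responses (knockout minus wild type) was positive for 5 members and negative for 5. It was positive for 60.9% of all genes above the floor on all arrays. Slc39a8 and Steap4 were not above it on all arrays, and the floor turned their signs. Slc39a8 went from -0.51 as deposited to 0.35, and Steap4 from 1.32 to -0.11.

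Between genotypes, Mt2 and Steap4 were at least 2-fold lower in untreated knockout cells (2.89% of all genes), and Slc39a14 and Steap4 with TNF (2.64%). Slc39a14 was only just inside, at 2.01-fold, and fell under 2-fold with no floor or after quantile normalization. None of the 10 was 2-fold higher in knockout cells, untreated (1.45% of all genes) or with TNF (1.55%). Past the limma test for genotype, Mt1 and Steap4 were lower (3.67% of all genes) and 0 members were higher (2.94%). The median log2 genotype difference of the members was -0.18 untreated and -0.53 with TNF, and that of all genes -0.03 and 0.01.

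The other genes of metal handling were read from 3 lists of zinc, iron and copper genes. Of 24 further metallothionein and zinc genes 17 lay above the floor on at least 1 array, with a median TNF difference of 0.12 log2 in wild-type cells and 0.07 in the knockout. Only the zinc importer gene Slc39a4 reached 2-fold with TNF, at least 2.48-fold in knockout cells (floor to a signal of 191). Slc39a6, another zinc importer gene, was higher in knockout cells (0.53 ± 0.09 log2, SE, limma adjusted p = 0.046), a call lost in 4 of 9 other additive fits (adjusted p from 0.059 to 0.13), with signals of 1738 and 1882 in wild-type cells and of 2397 and 2836 in knockout cells. None of the zinc list passed limma for TNF; the Slc39a4 effect, 0.82 log2 (adjusted p = 0.19), was 1.97 log2 and passed with no floor (adjusted p = 0.017), and it also passed after centring (0.81 log2, adjusted p = 0.037). Of 7 copper genes 6 lay above the floor, and none reached 2-fold or passed limma in any comparison.

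Of 37 further iron genes 33 had a named probe set and 29 lay above the floor. Their median TNF difference was 0.09 log2 in wild-type cells and 0.12 in the knockout. With TNF 3 were at least 2-fold higher in the wild type and 2 in the knockout (2.20% and 1.35% of all genes), and 2 of 27 rose in limma (1.57% of all genes), namely Cp and Lcn2. Cp, ceruloplasmin, the copper ferroxidase that helps iron leave cells, had signals of 797 and 3208 in wild-type cells and of 407 and 1342 in knockout cells (TNF effect 1.86 ± 0.12 log2, SE, limma adjusted p = 0.011). Its second probe set gave TNF differences of 2.08 and 1.89 log2. Lcn2, a secreted protein that binds iron-carrying siderophores, had signals of 1959 and 7501 in wild-type cells and of the floor and 286 in knockout cells (TNF effect 1.91 ± 0.10 log2, SE, limma adjusted p = 0.0098). Its knockout response is a bound, since the untreated knockout value was at the floor. The SE is small because the floor left a knockout response of 1.89 log2, close to the wild-type 1.94. With the floor at the 30th percentile the Lcn2 TNF effect was 2.36 log2 (limma adjusted p = 0.033). With the floor at the 70th percentile it was 1.13 log2 and no longer passed (adjusted p = 0.17). Like Steap4, Lcn2 had less signal in TNF-treated knockout than in untreated wild-type cells. Steap1, a relative of Steap4, was 2.28-fold higher with TNF in wild-type cells and 1.55-fold higher in knockout cells.

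Of the 27 iron genes tested for genotype in limma, 4 were lower (3.67% of all genes) and 0 higher (2.94%) in knockout cells: Lcn2 (-4.69 log2, adjusted p = 0.0019), Cp (-1.11 log2, adjusted p = 0.019), Hfe (-1.05 log2, adjusted p = 0.020) and Slc25a37 (-1.02 log2, adjusted p = 0.044). The Lcn2 effect is a bound, since its untreated knockout value was at the floor. With the floor at the 30th percentile it was -5.14 log2 (limma adjusted p = 0.01). Hfe, a partner of the transferrin receptor whose loss causes iron overload, had signals of 351 and 529 in wild-type cells and of 165 and 263 in knockout cells, but its second probe set showed a smaller difference (-0.19 and -0.51 log2, untreated and TNF), and the effect there did not pass limma (-0.35 log2, adjusted p = 0.19). Slc25a37, the mitochondrial iron importer mitoferrin, had signals of 547 and 729 in wild-type cells and of 222 and 434 in knockout cells, and missed the threshold with the floor at the 30th percentile (adjusted p = 0.056). Hmox1, the haem-degrading enzyme, was 2.55-fold higher in knockout than in wild-type cells with TNF. For the iron sensor genes Ireb2 and Aco1 none of the 4 comparisons gave a difference above 0.16 log2.

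**Figure D4:**
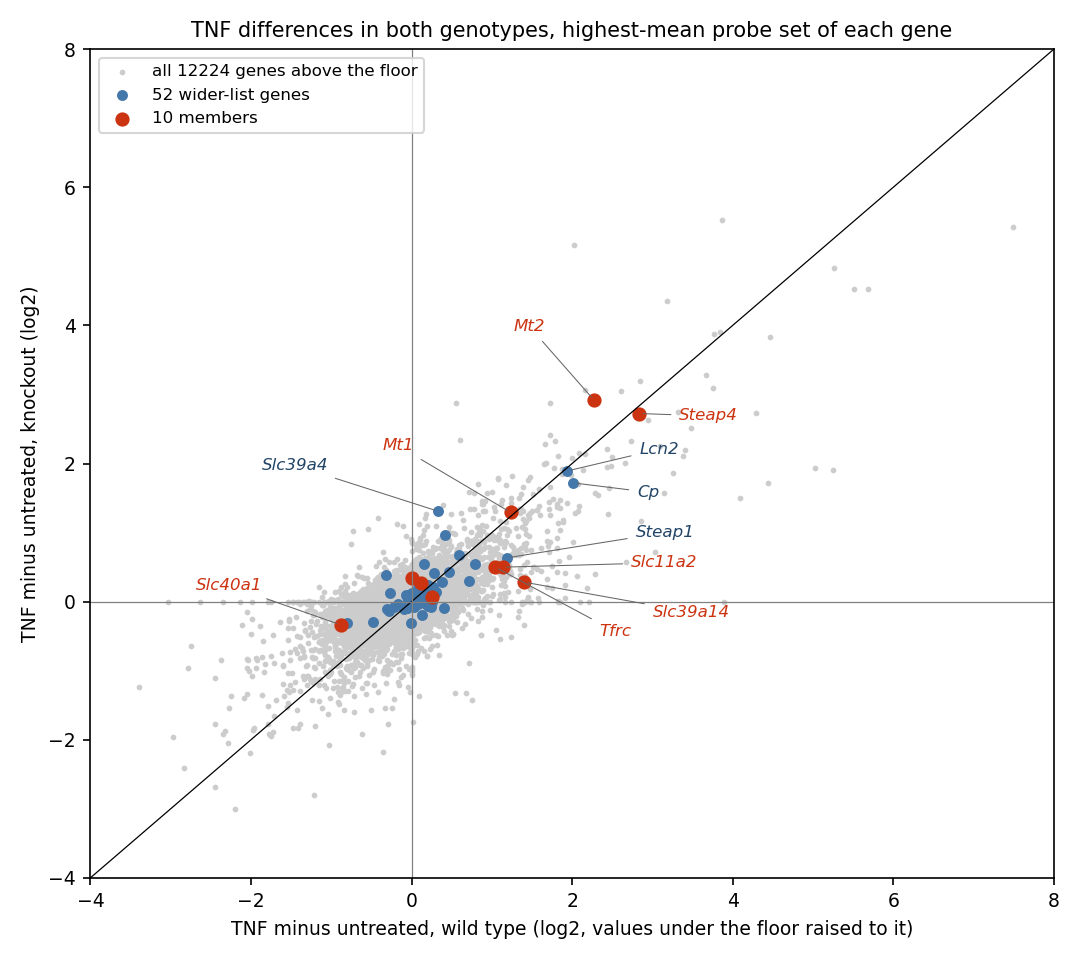
TNF minus untreated (log2) in wild-type cells (horizontal axis) and in knockout cells (vertical axis), for the probe set of highest mean of each gene, values under the floor raised to it. Grey points are the 12224 genes above the floor, blue points the 52 genes of the zinc, iron and copper lists, and red points the 10 members; on the diagonal both genotypes have the same difference. Mt2 lies above the diagonal (2.27 and 2.92), and Slc39a14 (1.40 and 0.28), Slc11a2 and Tfrc lie below it.

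For the 6 members whose values spanned at least 1 log2 unit, the genes of most similar pattern were found by the Euclidean distance between log2 values centred on their mean over the 4 arrays. With 4 arrays many genes can match closely, so these are descriptions. Nearest to Mt1 were Angptl4 (0.05), Tagln2 and Tmem176a (both 0.19), and nearest to Mt2 were Rnd1 (0.26), Relb (0.55) and H2-K1 (0.57). For Slc11a2 they were Fam20c (0.04), Acvr1b (0.09) and Zbp1 (0.12), for Slc39a14 Tpd52l1 (0.07), Spib (0.18) and Acvr1b (0.20), and for Tfrc Plaat3 (0.05), Igtp (0.09) and Slc11a2 (0.15). Slc11a2 was thus among the 3 nearest genes to another member, Tfrc. Steap4 had no near match, the closest being Mmp13 (0.77), Tslp (1.23) and Lcn2 (1.45).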

How the data were processed

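Probe set values were deposited on what their span (2.79 to 14.4) shows to be a log2 scale. Per the submitters' processing notes the authors used MAS5, with no version given, but the values have nearly equal medians and maxima on the 4 arrays and the summary method behind them is not settled; normalization between arrays and filters are not given in the sources used here, so any compression of low values or differences is unknown. Probe sets were named through the platform annotation (34945 ordinary probe sets name 1 gene, 932 several, 9160 are unnamed here); symbols were checked by Entrez identifier (34741 matched, 0 changed). For each of 18193 genes the probe set with the highest mean was used. Arrays were not rescaled, since their trimmed means differed by 2.94%. Values under the 50th percentile were raised to it.

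Single arrays were compared by fold, with 2-fold as the call. The additive model took the 11817 genes with 2 or more arrays above the floor (limma 3.58.1 in R 4.3.3, lmFit and eBayes with intensity trend, 1 residual degree of freedom, Benjamini-Hochberg, threshold 0.05). The error behind a p-value is the gene's gap between the responses of the 2 genotypes, pooled with the gaps of other genes (prior of 3.52 degrees of freedom). It is not a spread between replicates, and p-values say nothing beyond these arrays. Tested on simulated data (TNF effect, 11817 genes, 200 of them changed), it recovered 0% of 2-fold changes with 0 false calls, and 99.0% of 4-fold changes with 21 false calls. That is a larger share of false calls than the 0.05 threshold. No genotype effect and no other number of changed genes was simulated. The 0% therefore does not carry over to the real fit, which called smaller effects (Mt1, genotype, -0.55 log2). Wider-list genes are named if at least 2-fold apart in a comparison or past limma; Mtf1, Mt3, Ireb2 and Aco1 were named after their values were seen. Members, lists, tests and motifs were chosen with earlier results of these data known. Alternatives were other floors, no floor, quantile normalization, centring, other probe sets and other limma settings.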

Additional observations from a re-analysis of the deposited data

Results flagged for a closer look

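Hmox1 was singled out because its TNF difference had opposite signs in the genotypes. It had signals of 1412 and 1134 in wild-type cells (-0.32 log2) and of 2204 and 2892 in knockout cells (0.39 log2). With 1 array per condition this difference was not tested. Its limma genotype effect, 1.0 log2, missed the threshold (adjusted p = 0.057) and passed it in 5 of 8 other additive fits (adjusted p from 0.0072 to 0.043 in those 5).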

How the results depend on the processing

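Only 1 array per condition exists, so no array could be left out of a comparison, and without 1 array the additive model has no residual degree of freedom. No paired analysis was possible because the labels give no replicate numbers. All 14 member differences of at least 2-fold kept their direction in the 95 values under other settings, and 79 of these were still at least 2-fold. Of the 10 genes, Mt2 rose with TNF in all 9 additive fits in which it was tested (it has 1 probe set), Mt1 in 9 of 10 and Steap4 in 8 of 9; the exceptions were the second probe sets. When the other factor was left out of the model, 0 members and 0 genes in all rose or fell with TNF, and for genotype 0 members and 4 higher and 6 lower genes were left, since that factor's variation then counts as error.

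Counts of members moved as follows. With the floor at the 30th percentile 1 member (Slc39a8) was at least 2-fold higher in untreated knockout cells and 1 (Steap4) had a larger knockout response; at the 70th percentile 2 (Slc39a14 and Steap4) had a smaller one. With no floor, quantile normalization or the mean of all probe sets only 1 member was 2-fold lower in knockout cells with TNF. With the mean of all probe sets 3 members were 2-fold higher with TNF in wild-type cells, 0 had a 2-fold smaller knockout response and 1 was lower in the limma genotype test, as it was without the intensity trend (1). On second probe sets the 2-fold counts were 2 (TNF, wild type), 1 (TNF, knockout), 1 and 1 (lower in knockout cells, untreated and TNF), and 0 members passed limma for TNF or genotype. After centring 5 members rose and 1 fell with TNF in limma, and 1 was higher and 4 lower in knockout cells; with no floor 1 was higher in knockout cells.

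Over all genes, the floor at the 70th percentile left 154 genes 2-fold lower with TNF in wild-type cells, 103 higher and 219 lower in untreated knockout cells and 112 higher with TNF. Second probe sets, which fewer genes have, gave 110 higher and 62 lower for the wild-type TNF response, 44 and 50 for the knockout one, 74 and 113 for genotype untreated, 65 and 118 with TNF, 32 and 53 for the difference of responses, and in limma 19 and 9 (TNF) and 93 and 91 (genotype). The limma count lower with TNF was 135, and 225 at the 70th percentile floor, 212 with no floor and 213 for genes above the floor on all arrays. After centring, limma called 405 higher and 518 lower with TNF, and 532 higher and 980 lower in knockout cells. The cause was not tested.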
